A study of Homo sapiens with 18 samples.

Results

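Chromatin immunoprecipitation sequencing (ChIP-seq) of 2 histone marks was examined at 5 genes, *ZNF608*, *SMIM3*, *CLSTN2*, *SLC5A1* and *MIR30A*, at which trimethylation of lysine 4 of histone H3 (H3K4me3) was almost all in 1 of 2 groups of V16D cells. V16D is a castration-resistant prostate cancer line derived from LNCaP cells. It was transduced, in biological triplicate, with a control lentivector (V16D/CTL) or with a lentivector for overexpression of *H19*, a long non-coding RNA (V16D/H19), so that both groups carry a lentivector, and all cells grew in RPMI1640 with 10% fetal bovine serum. Each group has 3 replicates, and each replicate has a library for H3K4me3, a library for H3K27me3 (trimethylation of lysine 27) and its own input. The model is 1 cell line with a transgene.

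The 5 genes were chosen by their H3K4me3 values in these libraries. The authors' table of differential H3K4me3 sites holds 1857 sites with 1628 distinct gene symbols, and 5 of the sites are annotated to the 5 genes, 1 to each. Since the same contrast chose them, everything on H3K4me3 below is a description of these libraries with no test. H3K27me3 did not enter the choice and was tested. The description covers all peaks of the 12 deposited peak lists from 50 kb upstream to 50 kb beyond each gene.

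H3K4me3 is deposited around the starts of genes that are transcribed or ready for transcription, and most active promoters carry a broad, strong peak of it. H3K27me3 is written by Polycomb repressive complex 2, with EZH2 as its enzyme, and lies over silenced developmental and lineage genes, often as wide domains. A promoter with both marks is called bivalent and is regarded as silent but poised. In prostate cancer these marks are of interest because luminal cells under androgen deprivation can lose androgen receptor signaling and take on neuroendocrine features.

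The 5 genes have unlike roles. *ZNF608* encodes a zinc finger protein and *SMIM3* a small integral membrane protein. *CLSTN2* encodes calsyntenin 2, a neuronal transmembrane protein of the cadherin superfamily found at synapses. *SLC5A1* encodes SGLT1, the sodium-coupled transporter that takes up glucose and galactose in the intestine and kidney. *MIR30A* encodes the hairpin from which both miR-30a strands are cut.

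The sequences under the sites are shown first, since the peaks are read against them. RefSeq sequences on GRCh38.p14 were found for all 5 genes, as a promoter for 4 and as a miRNA for 1. For *SMIM3*, *CLSTN2* and *SLC5A1*, which had H3K4me3 peaks at the start, the promoter is given from 250 bases before to 50 bases after the RefSeq start, on the strand of the gene. *SMIM3* lies at chr5:150778507-150778806 on the plus strand, *CLSTN2* at chr3:139934935-139935234 on the plus strand, and *SLC5A1* at chr22:32043011-32043310 on the plus strand. *LINC00472*, at chr6:71420696-71420995 on the minus strand, is shown as the marked promoter nearest to *MIR30A*. Capitals mark exact matches, on either strand, to the cyclic AMP response element TGACGTCA, the GC box GGGCGG, the CCAAT box CCAAT and the TATA box TATAAA. Overlapping or adjacent matches run together in *LINC00472*.
SMIM3: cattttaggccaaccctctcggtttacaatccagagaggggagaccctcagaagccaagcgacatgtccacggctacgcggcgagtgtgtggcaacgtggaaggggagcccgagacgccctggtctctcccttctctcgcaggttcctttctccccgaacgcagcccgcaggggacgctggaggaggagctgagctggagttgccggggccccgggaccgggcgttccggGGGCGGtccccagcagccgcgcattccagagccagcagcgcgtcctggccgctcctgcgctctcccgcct
CLSTN2: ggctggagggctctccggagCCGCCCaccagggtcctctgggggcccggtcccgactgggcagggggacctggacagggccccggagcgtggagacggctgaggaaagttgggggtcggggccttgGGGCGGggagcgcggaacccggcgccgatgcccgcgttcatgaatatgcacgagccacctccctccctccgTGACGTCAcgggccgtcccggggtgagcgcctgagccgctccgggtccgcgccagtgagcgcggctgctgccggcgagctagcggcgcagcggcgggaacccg
SLC5A1: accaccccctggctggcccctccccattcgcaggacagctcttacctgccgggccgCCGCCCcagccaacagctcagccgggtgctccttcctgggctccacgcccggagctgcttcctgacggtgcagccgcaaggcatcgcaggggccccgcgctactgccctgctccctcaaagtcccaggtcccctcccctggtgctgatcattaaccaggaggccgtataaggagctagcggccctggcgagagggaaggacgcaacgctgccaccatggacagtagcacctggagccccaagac
LINC00472: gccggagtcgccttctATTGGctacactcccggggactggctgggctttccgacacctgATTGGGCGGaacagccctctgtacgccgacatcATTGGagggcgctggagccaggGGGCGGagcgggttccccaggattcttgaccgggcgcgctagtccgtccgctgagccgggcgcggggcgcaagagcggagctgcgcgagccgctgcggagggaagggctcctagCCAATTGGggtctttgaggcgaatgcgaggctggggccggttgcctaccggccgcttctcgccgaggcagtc

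The promoters of the 4 protein-coding genes differed in composition. *CLSTN2* held 36 CpG dinucleotides in its 300 bases, above 87.3% of 35116 RefSeq promoters of the same length, and 75.3% of its bases were G or C. *SMIM3* held 27 CpG (above 71.8% of promoters) and *SLC5A1* held 17 (above 54.0%), against a median of 14 over all promoters. *ZNF608* had the poorest promoter of the 4, with 6 CpG (above 33.7%) and 50.7% G or C. *CLSTN2* was the only one of the 4 with the full cyclic AMP response element, 53 bases before the start, and 1.85% of all promoters hold one. GC boxes were present in *SMIM3*, with 1 match, *CLSTN2* with 2 and *SLC5A1* with 1, and 45.0% of all promoters hold at least 1. *ZNF608* held none of these, but 3 CCAAT boxes and 1 TATA box, which 34.6% and 11.5% of promoters hold. A match describes letters and does not show a bound factor.

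The *MIR30A* hairpin is encoded at chr6:71403551-71403621 on the minus strand (GRCh38.p14) and is 71 bases long. It is shown because the whole hairpin lay under the H3K4me3 peak in V16D/H19. Capitals mark the mature strands, miR-30a-5p first and miR-30a-3p second.
MIR30A hairpin: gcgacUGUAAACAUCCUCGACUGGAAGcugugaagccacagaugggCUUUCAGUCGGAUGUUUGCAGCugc

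Mature strands are given next with the seed, bases 2 to 8, in capitals, because target choice rests mainly on the seed. The 5p strands of miR-30a, miR-30c and miR-30e share the seed GUAAACA, so these miRNAs are expected to share many targets whichever gene they come from. The 3p strands of miR-30a and miR-30e share UUUCAGU.
hsa-miR-30a-5p: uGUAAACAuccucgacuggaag
hsa-miR-30c-5p: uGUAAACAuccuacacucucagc
hsa-miR-30e-5p: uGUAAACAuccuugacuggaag
hsa-miR-30a-3p: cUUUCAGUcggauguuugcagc
hsa-miR-30e-3p: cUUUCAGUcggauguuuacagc

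The H3K4me3 lists held 20048 to 21934 peaks per library, with a median fold over input of 24.6 to 28.6, and the H3K27me3 lists held 55060 to 72289 peaks, with a median fold of 3.35 to 3.53. The number of reads per library was not used here, and the number of peaks in a list can vary with it. Of 5 luminal prostate markers, 3 had a start in the tables, and *KLK2*, *KLK3* and *KRT8* had an H3K4me3 peak within 1 kb of it in all 6 libraries. A peak in every library does not mean an equal level: 2 of the 5 markers have a site in the differential table, *KLK2* with an authors' mean of 8.05 in V16D/CTL against 6.73 in V16D/H19, and *TMPRSS2* with 10.27 against 10.59. Neither mark had a peak within 1 kb of the start of *H19* in any library, and the vector transcript cannot be seen in these data, so the overexpression was not checked.

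In the authors' table the 5 sites stood at the ends of the scale. The table gives a concentration per group, the log2 of normalized reads averaged over the 3 libraries, printed here as the authors' mean. Over all 1857 sites the median concentration was 8.59 in V16D/CTL against 8.30 in V16D/H19, or 385 and 315 reads. At *ZNF608* it was 6.37 in V16D/CTL against 0.20 in V16D/H19, or 82.7 and 1.15 reads, and no other site fell further. *SMIM3* had 4.58 and -0.20, or 23.9 and 0.871 reads, the third largest decrease. The increases were at *MIR30A*, from -0.20 to 5.44 (0.871 and 43.4 reads, the largest of the table), *CLSTN2*, from -0.20 to 4.07 (16.8 reads in V16D/H19), and *SLC5A1*, from -0.20 to 3.99 (15.9 reads in V16D/H19). Even in the group where it was high, each of the 5 sites had fewer reads than the median site. These reads are counted per site and were not scaled for width. The 5 sites ran from 543 bases at *MIR30A* to 8120 at *ZNF608*, against a median width of 2531 over the table.

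The value -0.20 is the lowest of the table, and 12 sites share it in V16D/CTL and 10 in V16D/H19. Sites of different widths share it, so it is treated as a floor, and the 0.871 reads printed for it are not read as a count. For the same reason no fold change is given against it. Of the 12 sites at this value in V16D/CTL, 3 are *CLSTN2*, *SLC5A1* and *MIR30A*, and of the 10 in V16D/H19, 1 is *SMIM3*. Their concentrations in the other group ran from 3.01 to 5.44 for the 12 and from 3.03 to 5.27 for the 10, and *MIR30A* was the highest of the 12. An H3K4me3 peak was called in all 3 V16D/H19 libraries at 4 of the 12 sites and in all 3 V16D/CTL libraries at 2 of the 10. In that higher group, 4 of the 12 and 4 of the 10 were called in fewer than 2 libraries. In each set 1 site also had a peak in the group at the floor. At least 1686 of the 1857 table sites had 3 called replicates on 1 side of the contrast or both. Peak support was thus poorer at the floor sites than over the table.

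**Figure D1:**
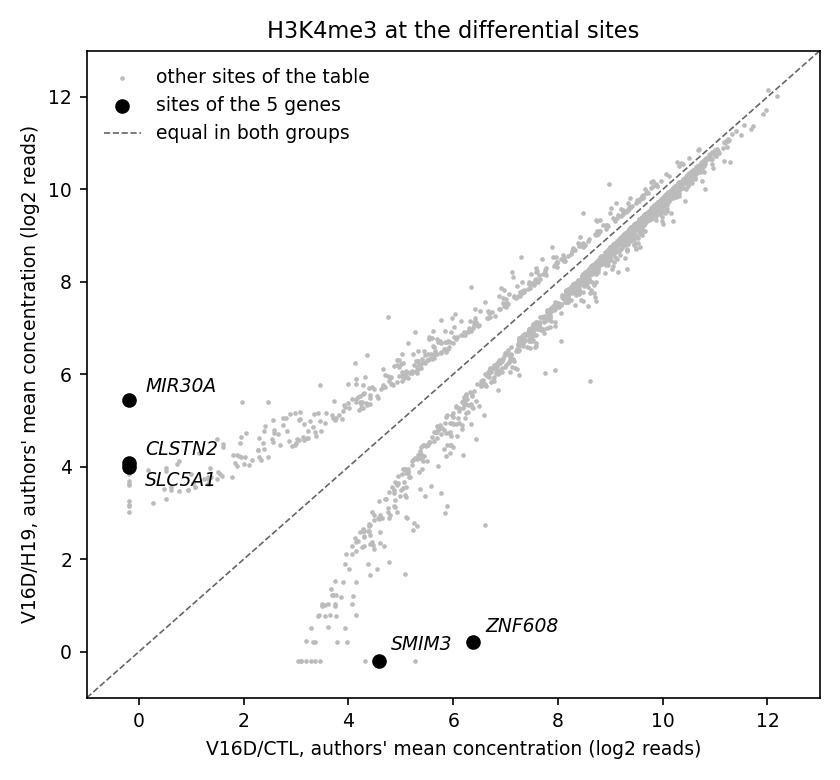
Authors' mean H3K4me3 concentration, as log2 reads, in V16D/CTL (x axis) and V16D/H19 (y axis) for the 1857 differential sites (grey points) and the sites of the 5 genes (black points); the dashed line marks equal values. ZNF608 and SMIM3 lie along the bottom edge and MIR30A, CLSTN2 and SLC5A1 along the left edge, where 1 group is at or near the lowest value of -0.20.

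The other sites with the most extreme differences, 3 in each direction, were read for comparison. On the side that was lower in V16D/H19 they were a site without a gene symbol on chromosome 9 (5.27 and -0.20), a distal intergenic site annotated to *ACP6* (4.32 and -0.20) and *PDE7B* (6.61 and 2.74), and the first of these fell further than *SMIM3*. On the other side they were *SYNDIG1* (-0.20 and 3.93), an intronic site without a symbol on chromosome 2 (-0.20 and 3.85) and *VGLL2* (-0.20 and 3.69). *SLC5A1*, at 3.99 in V16D/H19, was thus the last of the increases included and *SYNDIG1*, at 3.93, the first left out. *SYNDIG1*, the intronic site and *VGLL2* had a peak in 2, 2 and 1 of the 3 V16D/H19 libraries, and in no V16D/CTL library. The site on chromosome 9, *ACP6* and *PDE7B* had one in 3, 2 and 3 of the V16D/CTL libraries. *PDE7B* also had a peak in 1 V16D/H19 library, the same 3 against 1 as *SMIM3*, and the other 2 had none.

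The peak lists give the values of each library. At *ZNF608* the V16D/CTL libraries had 1, 4 and 2 peaks over the site, whose highest folds over input were 7.01, 9.67 and 6.02. No V16D/H19 library had a peak there. At *SMIM3* the V16D/CTL folds were 7.09, 9.40 and 7.90. Replicate 2 of V16D/H19 still had a peak of 269 bases at the *SMIM3* start, with a fold of 4.09, although the authors' mean stood at the lowest value of the table. *SMIM3* was marked in 3 of 3 V16D/CTL and 1 of 3 V16D/H19 libraries, and the lowest V16D/CTL fold lay above the V16D/H19 one.

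The 3 gains were called in every V16D/H19 and in no V16D/CTL library. At *MIR30A* the V16D/H19 folds were 6.42, 13.8 and 10.8, with −log10 q-values of 14.4, 33.1 and 22.2. In each V16D/H19 library this was the strongest peak over the 5 sites. *CLSTN2* had folds of 4.90, 5.21 and 6.04 with −log10 q-values of 4.71, 6.33 and 7.64. *SLC5A1* had folds of 4.71, 6.97 and 5.02 with −log10 q-values of 5.22, 8.83 and 4.66. Both were weak peaks that cleared the calling threshold in each replicate.

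The pattern of a peak in every library of one group and none of the other thus held at 4 of the 5 sites, 1 toward V16D/CTL and 3 toward V16D/H19. Among the 1857 table sites it was found at 1.78% toward V16D/CTL and 2.53% toward V16D/H19. Among the 20708 sites merged from the 6 lists it was found at 0.410% (85 sites) and 0.903% (187 sites). The rule chose the 5 sites on this contrast, so these shares are only their setting.

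**Figure D2:**
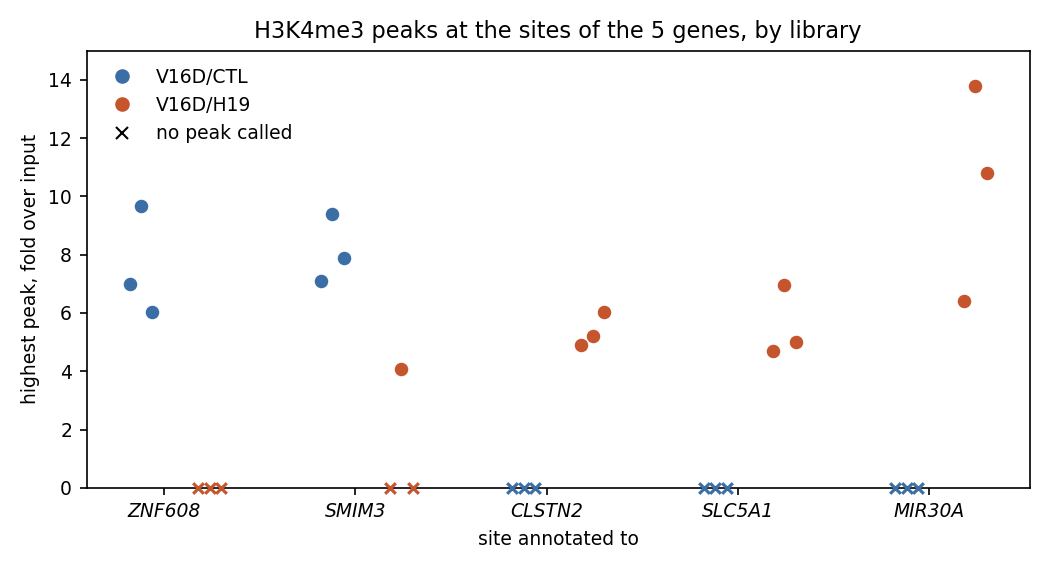
Highest H3K4me3 peak over each of the 5 sites in each library, as fold over input (y axis, linear), with 3 V16D/CTL (blue) and 3 V16D/H19 (orange) libraries per site; a cross on the axis is a library without a peak. SMIM3 is the only site with a peak in both groups, at 4.09 in V16D/H19 replicate 2 and 7.09 to 9.40 in V16D/CTL.

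None of these peaks was strong for H3K4me3. Ranked by fold within their own lists, the peaks of *ZNF608* stood at percentiles 23.0, 27.7 and 17.5 and those of *SMIM3* in V16D/CTL at 23.7, 27.2 and 25.5. *CLSTN2* stood at 13.4, 15.3 and 18.9, *SLC5A1* at 11.4, 25.1 and 11.6, and *MIR30A* at 24.0, 38.3 and 31.8. The single V16D/H19 peak of *SMIM3* stood at 5.51. A library had a peak over a site in 16 cases, and in each the strongest such peak stood below the middle of its list, so that the switch was between no peak and a weak peak. The peaks were narrow as well. They covered 265, 573 and 301 bases at *CLSTN2*, 380, 481 and 327 at *SLC5A1*, and 535, 516 and 509 at *MIR30A*, against median widths of 1254 to 1364 bases over the lists. At *SMIM3* the V16D/CTL peaks covered 400, 561 and 506 bases. At *ZNF608* the 1, 4 and 2 peaks of the V16D/CTL libraries together covered more, 1000, 1467 and 1179 bases.

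The place of the peaks differed between the genes. At *SMIM3* and *CLSTN2* they began close to the RefSeq start and reached into the gene. *SMIM3* peaks in V16D/CTL covered 42, 86 and 75 of the 300 bases printed above, and the V16D/H19 peak covered 55. At *CLSTN2* the V16D/H19 peaks covered 0, 169 and 104 of the printed bases, since the replicate 1 peak ran from 147 to 411 bases inside the gene. The *SLC5A1* peaks lay across the start and covered 300, 195 and 114 of the printed bases. At *MIR30A* the 3 peaks ran over the hairpin, from positions -227, -235 and -220 to positions 307, 280 and 288 relative to its first base. The start of *MIR30A* used here is the first base of the hairpin, not that of its primary transcript.

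*ZNF608* was the exception. Its RefSeq gene runs over chr5:124636915-124748824 on the minus strand, and the table site, chr5:124741733-124749852, is 8120 bases wide and spans the start. None of the V16D/CTL peaks touched the 300 promoter bases. The peak of replicate 1 lay 2162 to 3161 bases inside the gene. The 4 peaks of replicate 2 lay between 2207 and 5347 bases inside, and the 2 of replicate 3 between 2397 and 3928. The site was annotated as a promoter through a shorter transcript, ENST00000504926.5, that starts at position 124744521, within the stretch the peaks span. The H3K4me3 lost at *ZNF608* was thus inside the gene as RefSeq draws it. No library of either group had an H3K4me3 peak within 1 kb of the RefSeq start.

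The other sites of the table at these genes were chr5:150778220-150781880 for *SMIM3* (3661 bases), chr3:139934621-139936696 for *CLSTN2* (2076 bases), chr22:32042993-32043596 for *SLC5A1* (604 bases) and chr6:71403314-71403856 for *MIR30A* (543 bases). All 5 are annotated as promoters within 1 kb. The bounds of the *SLC5A1* and *MIR30A* sites equal the merged peaks of the 6 lists, as do those of 619 of the 1857 sites (33.3%). The sites of *ZNF608*, *SMIM3* and *CLSTN2* run beyond every deposited H3K4me3 peak there, so their concentrations count reads outside the called peaks.

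**Figure D3:**
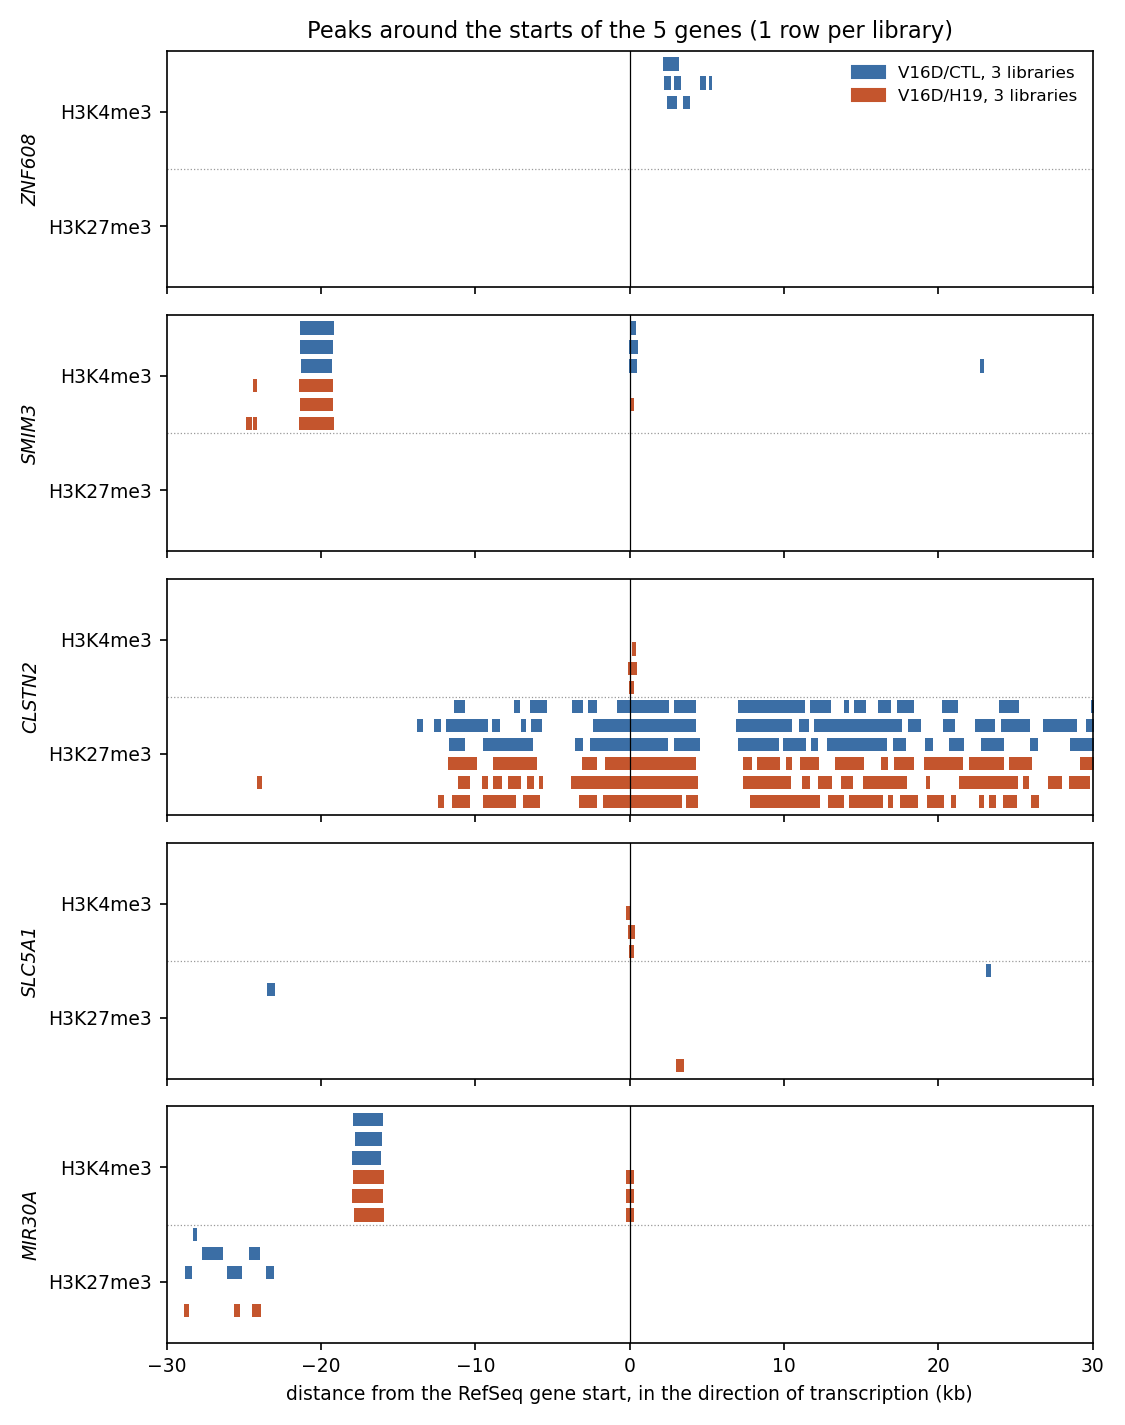
Peaks of H3K4me3 (upper 6 lines of each panel) and H3K27me3 (lower 6 lines) in each library, against the distance in kb from the RefSeq gene start in the direction of transcription, with V16D/CTL in blue and V16D/H19 in orange, each in the order of replicates 1 to 3. The ZNF608 peaks lie 2162 to 5347 bases inside the gene, MIR30A and SMIM3 each have a wide H3K4me3 peak upstream in all 6 libraries, and only CLSTN2 has H3K27me3 over its start.

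Neighbouring promoters were marked in both groups. In the *SMIM3* window *DCTN4*, which encodes a subunit of the dynactin complex and is transcribed from the other strand, starts 19740 bases from *SMIM3*. Its promoter had folds of 58.8, 36.8 and 52.6 in V16D/CTL against 44.6, 44.2 and 53.3 in V16D/H19, and the groups overlapped. Smaller H3K4me3 peaks in this window lay between positions -24839 and -24156 relative to the *SMIM3* start in V16D/H19 replicates 1 and 3, and from 22722 to 22945 in V16D/CTL replicate 3. An antisense gene model, *LOC124901110*, spans the *SMIM3* start, and ChIP-seq does not tell the strands apart.

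*MIR30A* lies past the end of *LINC00472* on the same strand, outside its RefSeq bounds of chr6:71407864-71420745. *LINC00472*, a long non-coding RNA, and *LINC01626*, which is transcribed away from it, share a promoter peak 17124 and 17406 bases from *MIR30A*. The folds at this peak were 60.0, 33.1 and 35.6 in V16D/CTL against 56.8, 61.8 and 53.6 in V16D/H19, and the ranges overlapped. All 300 bases of the *LINC00472* promoter printed above lay under it in all 6 libraries. The H3K4me3 that differed was therefore at the hairpin and not called differential at the upstream promoter: the *MIR30A* window holds 1 table site, that of *MIR30A* itself. *ZNF608*, *CLSTN2* and *SLC5A1* had no H3K4me3 peak anywhere else in their windows in any library.

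The relatives of the 5 genes were read in the same way, at 1 start per gene. For a miRNA gene this start is the first base of the hairpin, not that of its primary transcript. Of 19 paralogs listed, 15 had a start in the RefSeq tables. H3K4me3 was within 1 kb of the start in all 6 libraries for 5 of them and in no library for 10, with 3 miRNA genes among the 10. Of the 15, 0 had it in one group only. Among 15841 protein-coding genes with a start, 62.7% had it in all 6 libraries and 34.2% in none, while 0.0316% had it in V16D/CTL alone and 0.227% in V16D/H19 alone. The 36 genes behind this last share include *CLSTN2* and *SLC5A1*.

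Marked in every library were *ZNF609*, the paralog of *ZNF608* (folds 35.8 to 59.2), both other calsyntenins, *CLSTN1* (41.9 to 64.7) and *CLSTN3* (37.3 to 72.2), the myo-inositol transporter *SLC5A3* (22.0 to 71.0) and the multivitamin transporter *SLC5A6* (18.7 to 54.7). The lowest of these folds exceeded every fold at the 5 sites. Marked in none were the kidney glucose transporter *SLC5A2*, *SLC5A4*, the iodide transporter *SLC5A5*, the choline transporter *SLC5A7*, *SLC5A8*, *SLC5A10* and *SLC5A12*, and *MIR30C1*, *MIR30C2* and *MIR30E*. Of these *SLC5A7* had H3K27me3 at its start in 3 V16D/CTL and 2 V16D/H19 libraries, and *SLC5A8* in 2 and 1. The differential H3K4me3 table held 0 sites at the paralogs.

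H3K27me3 was the independent readout, and *CLSTN2* stood apart from the other genes in it. All 2076 bases of the *CLSTN2* site lay under H3K27me3 in all 6 libraries. The peak over the start was 3379, 6704 and 5042 bases wide in V16D/CTL against 5874, 8187 and 5089 in V16D/H19, and the widths overlapped. Its folds were 5.57, 5.17 and 6.32 in V16D/CTL against 5.49, 4.57 and 4.93 in V16D/H19, overlapping as well, and ranked between percentiles 98.0 and 99.9 of their lists. *CLSTN2* was thus among the strongest H3K27me3 regions of each library while its H3K4me3 peaks ranked at percentiles 13.4 to 18.9. In V16D/CTL the *CLSTN2* start had called peaks of H3K27me3 alone, and in V16D/H19 replicates 2 and 3 peaks of both marks were called over it. In V16D/H19 replicate 1 the H3K4me3 peak began 147 bases past the start, so both marks were called within the wider table site in all 3 V16D/H19 libraries. Such overlap in a population of cells does not show both marks on the same chromosomes.

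Around *CLSTN2* the H3K27me3 peaks formed a domain. Across the 742 kb from 50 kb upstream to 50 kb beyond the gene, V16D/CTL libraries had 64, 95 and 87 peaks that covered 49.0, 84.5 and 78.9 kb. V16D/H19 libraries had 65, 59 and 75 peaks that covered 61.0, 55.5 and 69.7 kb. Replicate 1 of V16D/CTL, which also had the shortest H3K27me3 list of the 6, was the lowest, and the groups overlapped only through it. The means were 70.8 ± 19.1 kb in V16D/CTL and 62.1 ± 7.12 kb in V16D/H19 (SD, n = 3), a difference of -8.68 kb (two-sided exact permutation test, p = 0.5, adjusted p = 1 by Benjamini-Hochberg over 20034 genes). The mean lay above that of 99.7% of 20033 protein-coding genes, in windows that grow with gene length. With 3 libraries a group, the smallest p this test can give is 0.1. When peaks were limited to a −log10 q of at least 3 the difference was 1.03 kb, so its direction did not hold.

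The domain was densest past the start. In the first 50 kb of the gene 33.1%, 54.0% and 48.0% of the bases were covered in V16D/CTL against 43.0%, 45.9% and 40.7% in V16D/H19. The V16D/H19 values lay within the V16D/CTL range. Over the 50 kb upstream, coverage was 4.25, 7.78 and 7.30 kb in V16D/CTL against 7.26, 7.40 and 8.35 kb in V16D/H19, and over the remaining 592 kb of the gene it was 28.1, 49.2 and 47.6 kb and 32.0, 25.2 and 40.9 kb. Within 5 kb of the start it ran from 6 to 7.22 kb in V16D/CTL and from 6.85 to 8.19 kb in V16D/H19. The groups overlapped in each of these stretches.

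The other 4 sites had no H3K27me3 peak in any library. *ZNF608* and *SMIM3* had none anywhere in their windows of 212 and 118 kb, in either group, so no H3K27me3 was called there in the V16D/H19 libraries without an H3K4me3 peak, 3 of 3 at *ZNF608* and 2 of 3 at *SMIM3*. In this they were like 8726 of the protein-coding genes (43.6%). *SLC5A1* had scattered short peaks that covered 0.632, 1.21 and 0.375 kb in V16D/CTL against 0.296, 0 and 1.93 kb in V16D/H19. The means were 0.739 ± 0.427 and 0.741 ± 1.04 kb (SD, n = 3; two-sided exact permutation p = 1, adjusted p = 1). Their folds were 2.96 to 4.23, and none lay over the start.

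Around *MIR30A*, H3K27me3 covered 0.294, 2.59 and 4.65 kb in V16D/CTL against 0.584, 2.11 and 0.668 kb in V16D/H19. The values overlapped only through V16D/CTL replicate 1, with means of 2.51 ± 2.18 and 1.12 ± 0.858 kb (SD, n = 3), a difference of -1.39 kb (two-sided exact permutation p = 0.4, adjusted p = 1). The peaks lay on both sides, upstream beyond the *LINC00472* promoter and downstream past *MIR30C2*, and none within 10 kb of *MIR30A*. In *MIR30A* the peak coverage ranked above 75.5% of protein-coding genes, and in *SLC5A1* above 67.6%.

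No gene of the 20034 tested passed the adjusted threshold (0%) in this permutation test, nor had any an unadjusted p under 0.05, which the design cannot reach, and 2530 had the smallest p of 0.1. H3K27me3 coverage was below every V16D/CTL library in every V16D/H19 library for 11.5% of protein-coding genes and above for 1.08%. None of the 5 genes was in either set. The differential H3K27me3 table, with 1140 sites, held 0 sites in the windows of the 5 genes.

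**Figure D4:**
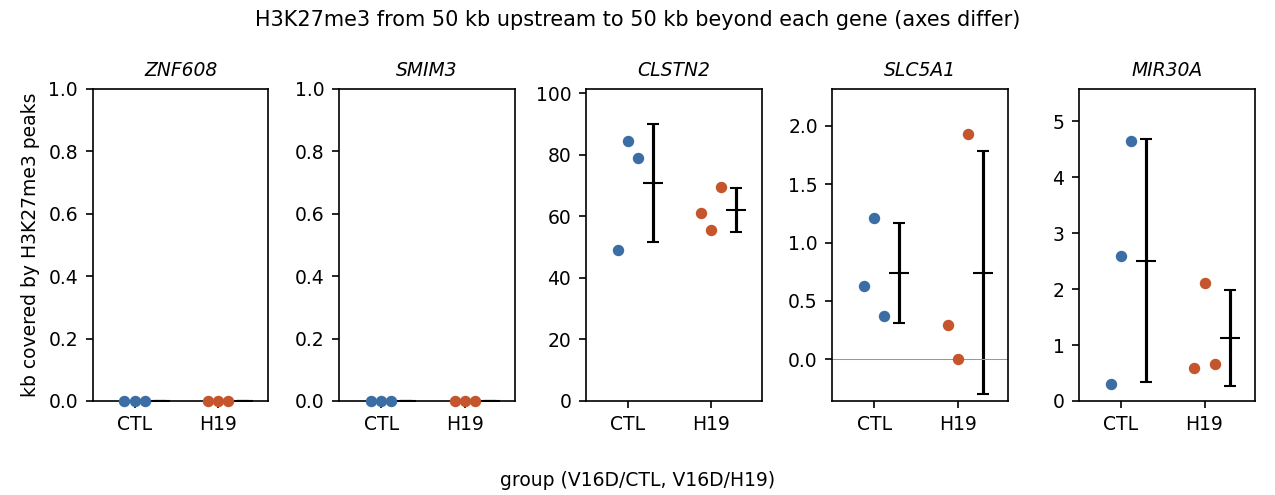
Length covered by H3K27me3 peaks (y axis, kb, scaled for each gene) from 50 kb upstream to 50 kb beyond each gene in the 3 V16D/CTL (blue) and 3 V16D/H19 (orange) libraries, with the mean and SD of each group in black. ZNF608 and SMIM3 are at 0 in all 6 libraries, and the groups overlap at CLSTN2, SLC5A1 and MIR30A.

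The sites at the lowest concentration of the H3K4me3 table were also read for H3K27me3. Of the 12 at this value in V16D/CTL, 4, *CLSTN2* among them, overlapped an H3K27me3 peak in all 6 libraries, and of the 10 at this value in V16D/H19, 0 overlapped one in any library. Across the 1857 sites, 187 overlapped an H3K27me3 peak in all 6 libraries, and 18.0% did so in at least 1 library. The 2 sets were formed by their H3K4me3 values, and the difference between 4 of 12 and 0 of 10 was not tested.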

How the data were processed

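The series holds 12 peak lists and 2 tables of differential sites, on hg38 per the submitters' processing notes. The authors aligned reads of 75 bases, called peaks in each library with MACS2 (versions not given in the sources used here) against the input of its replicate, with default settings and the broad option for H3K27me3, and compared groups with DiffBind and ChIPseeker. Per peak, the deposited lists hold the score of MACS2, its fold enrichment over input as a ratio, and p and q on a −log10 scale. The deposited tables give a log2 concentration per group, the mean of normalized read counts over 3 libraries, which the authors computed. Their columns of fold changes, p-values and FDR hold the study's own comparisons and were not used. Coverage depths were not used, so no counting interval was computed.

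The 5 genes and all lists were chosen with earlier results of these data known. Named beside them were genes starting within 1 kb of a peak in their windows, listed paralogs and markers, and the 3 most extreme further sites each way. A peak belonged to a site when they shared 1 base, and peaks of the 6 lists merged where they shared 1 base were sites if called in 2 libraries. H3K27me3 length was compared by a two-sided exact permutation test over the 20 assignments of the 6 libraries, adjusted by Benjamini-Hochberg over 20034 genes (Python 3.11.15, pandas 2.3.3, NumPy 2.4.6). The merging of peaks, the counts by group and the covered length were tried on simulated peak lists. The permutation test was tried only on fixed example values. Gene positions and sequences are from RefSeq on GRCh38.p14.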

Additional observations from a re-analysis of the deposited data

How the results depend on the processing

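The H3K4me3 calls at the 5 sites kept their direction under every alternative run: peaks with a −log10 q of at least 3, lists of equal length, a larger minimum overlap of peak and site, and each replicate left out. The sites were chosen on this contrast, and leaving out a single library could not have reversed such calls. The kept direction is therefore a description and not a test. Over all merged sites, the count with a peak in every V16D/CTL and no V16D/H19 library was 85 and ranged from 120 to 218 without a replicate. The count toward V16D/H19 was 187 and ranged from 258 to 569, the highest without V16D/H19 replicate 3, whose list is the shortest. Fewer libraries make this pattern easier to meet. With lists of equal length the counts were 110 toward V16D/CTL and 150 toward V16D/H19, closer to each other than as deposited. They were 80 and 171 with a −log10 q of at least 3, and 67 and 183 with peaks merged across gaps of 500 bases.

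The H3K27me3 differences passed no threshold in any setting, and none could, since the smallest p of the exact permutation test was 0.1. Their changes of sign therefore do not bear on a call. At CLSTN2 the difference was -8.68 kb, 1.03 kb with the stricter threshold, and -19.6 to -1.83 kb without a replicate, the former without V16D/CTL replicate 1. At SLC5A1 it was 0.00233 kb, 0 with the stricter threshold, -0.0110 with lists of equal length, and -0.591 to 0.373 without a replicate (the lowest without V16D/H19 replicate 3). At MIR30A it was -1.39 kb, -2.50 to -0.320 without a replicate, and 0 with the stricter threshold, with a window of 10 kb and with the gene and 1 kb on either side, since no peak was left there. Without V16D/CTL replicate 1, CLSTN2 (-19.6 kb) and MIR30A (-2.50 kb) each had the smallest exact permutation p of 0.1. Every V16D/H19 library then lay below the remaining V16D/CTL libraries, so the overlap of the groups at both genes rests on that replicate. The stricter threshold keeps 3269 to 6718 peaks per H3K27me3 library, fewer in each V16D/H19 than in any V16D/CTL library.

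With the replicate number as a block (replicate block, exact sign-flip permutation, smallest p 0.25) the differences were -8.68 kb at CLSTN2 (p = 0.75), 0.00233 kb at SLC5A1 (p = 1) and -1.39 kb at MIR30A (p = 0.5). Libraries of the same number did not deviate together: the correlations of their deviations were -8.5e-04, 0.026 and 0.019 for H3K4me3 over 15811 sites and 0.0089, -0.0094 and 0.0039 for H3K27me3 over 10934 sites, so the numbers were not taken as pairs. Peak lists without reads per library cannot show a difference in signal below the calling threshold.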
